A study of Homo sapiens with 18 samples.

Results

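Expression of 39 genes of homologous recombination, the Fanconi pathway and the DNA damage checkpoint was followed in 2 human leukaemia cell lines exposed to drugs that target DNA methyltransferases. The genes were chosen by name from knowledge of repair of DNA-protein crosslinks and stalled replication forks, with earlier results of these data known. Each gene was taken as the row with its symbol. All 39 were found in both lines, among 17110 genes listed for HL-60 and 17475 listed for MOLM-13. By role they comprise 9 checkpoint genes, 6 genes of DNA end resection, 10 genes of strand exchange and its mediators, 8 genes of the Fanconi core, 3 genes of the Fanconi ubiquitin step and 3 genes for a Fanconi helicase, a nuclease scaffold and a nuclease.

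Decitabine (DAC) is a cytidine analogue that is built into replicating DNA and holds DNA methyltransferase 1 in a covalent complex, which makes a DNA-protein crosslink. A replication fork that meets such a block stalls, and the checkpoint kinase ATR with its partner ATRIP signals the stall to CHEK1, while ATM responds to broken ends and signals to CHEK2. The Fanconi core complex attaches ubiquitin to FANCD2 and FANCI, nucleases open the lesion, and homologous recombination then copies the sister chromatid: ends are resected, BRCA1, PALB2 and BRCA2 load the recombinase, and motor proteins such as RAD54L help the strand exchange. Many genes of this set are transcribed mainly in dividing cells, from late G1 through S phase to G2.

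HL-60, a promyelocytic leukaemia line, and MOLM-13, a monocytic leukaemia line with a KMT2A fusion, were each exposed for 48 h (day 2) to the solvent DMSO, to DAC or to NTX-301, the study's test compound, with 3 replicates in each of the 6 groups and 18 samples in all. Total RNA was sequenced from stranded libraries. The labels state 15 nM (MOLM-13) and 30 nM (HL-60), in a wording that can be read as both drugs or as DAC alone, so line and concentration cannot be told apart, and it is not certain that the drugs were given at equal concentrations. Nothing in the labels says whether replicates came from separate cultures, so the p-values measure the spread between these samples, which may be technical.

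The deposited values are on a log2 scale and carry no gene length, and each line appears to have been normalized apart. Drug differences are therefore taken only within a gene and within a line. Levels are ranked between genes only to place the 39 among the genes of their line, without account of gene length. Read depth is not known. All 10 myeloid markers (such as MPO and CD33) were listed in both lines, as were 2 of 14 markers of other cell types in HL-60 and 6 of 14 in MOLM-13. All 39 genes lay above the median gene of their line (9.54 in HL-60, against 9.82 in MOLM-13), from FANCF at a mean of 9.85 and 10.00 to ATM at 14.9 and 14.8. Differences are compressed in low genes: the median range over the 9 samples of a line was 0.0203 (HL-60) and 0.0268 (MOLM-13) among genes with a mean of 0 to 3, against 0.208 and 0.257 among genes with a mean of 8 to 12. Without stated use of strand in counting, 10 genes that share exon sequence with a listed gene on the other strand (among them ATM, FANCA, FANCI, XRCC3, RAD54L, CHEK2 and FAN1) are less certain. The same holds for ATRIP, CHEK1 and RBBP8, which share exon sequence with TREX1, STT3A and MIR4741 on the same strand.

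In HL-60 most of these genes were higher with NTX-301 and fewer changed with DAC. In MOLM-13 most were lower with both drugs. With NTX-301 in HL-60, 21 of the 39 genes rose and 2 fell, where 18.3% of all genes tested were called higher and 19.2% lower. With DAC in HL-60, 10 rose and 4 fell, beside 11.6% and 12.6% of all genes. With DAC in MOLM-13, 2 rose and 29 fell, beside 15.4% and 21.2%, and with NTX-301 2 rose and 30 fell, beside 20.3% and 24.8%. The median log2 difference over the 39 genes in HL-60 was 0.04 with DAC and 0.09 with NTX-301. Where each sample was centred on its median, the NTX-301 median was 0.06, with 26 genes above 0 and 13 below in place of 35 and 4, and 16 genes were called higher and 3 lower. The MOLM-13 medians were -0.17 and -0.19 (-0.12 and -0.14 after quantile normalization, -0.20 and -0.22 where samples were centred). On the deposited values, the median over all genes tested was within 0.0034 of 0 in each of these comparisons. A call means an adjusted p under 0.05 in limma's moderated test, with the Benjamini-Hochberg correction made across every gene in the fit.

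The level of these genes bears on the reading of those shares. Genes of MOLM-13 whose mean value lay within the range of the 39 (8161 genes) had a median difference of -0.06 with DAC and -0.07 with NTX-301, and 39.5% and 45.7% of them were called lower. In HL-60, 7853 genes lay within that range, and 13.8% were called higher and 21.1% lower with DAC, and 19.0% and 33.0% with NTX-301. After quantile normalization, which removes differences that follow the level alone, 22 of the 39 genes were called lower with DAC and 24 with NTX-301 in MOLM-13, where the called share in that range was 25.7% and 31.1%. In HL-60 the same step left 24 genes called higher with NTX-301, against 23.6% in that range. The comparison within the range was chosen after the values were seen.

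**Figure D1:**
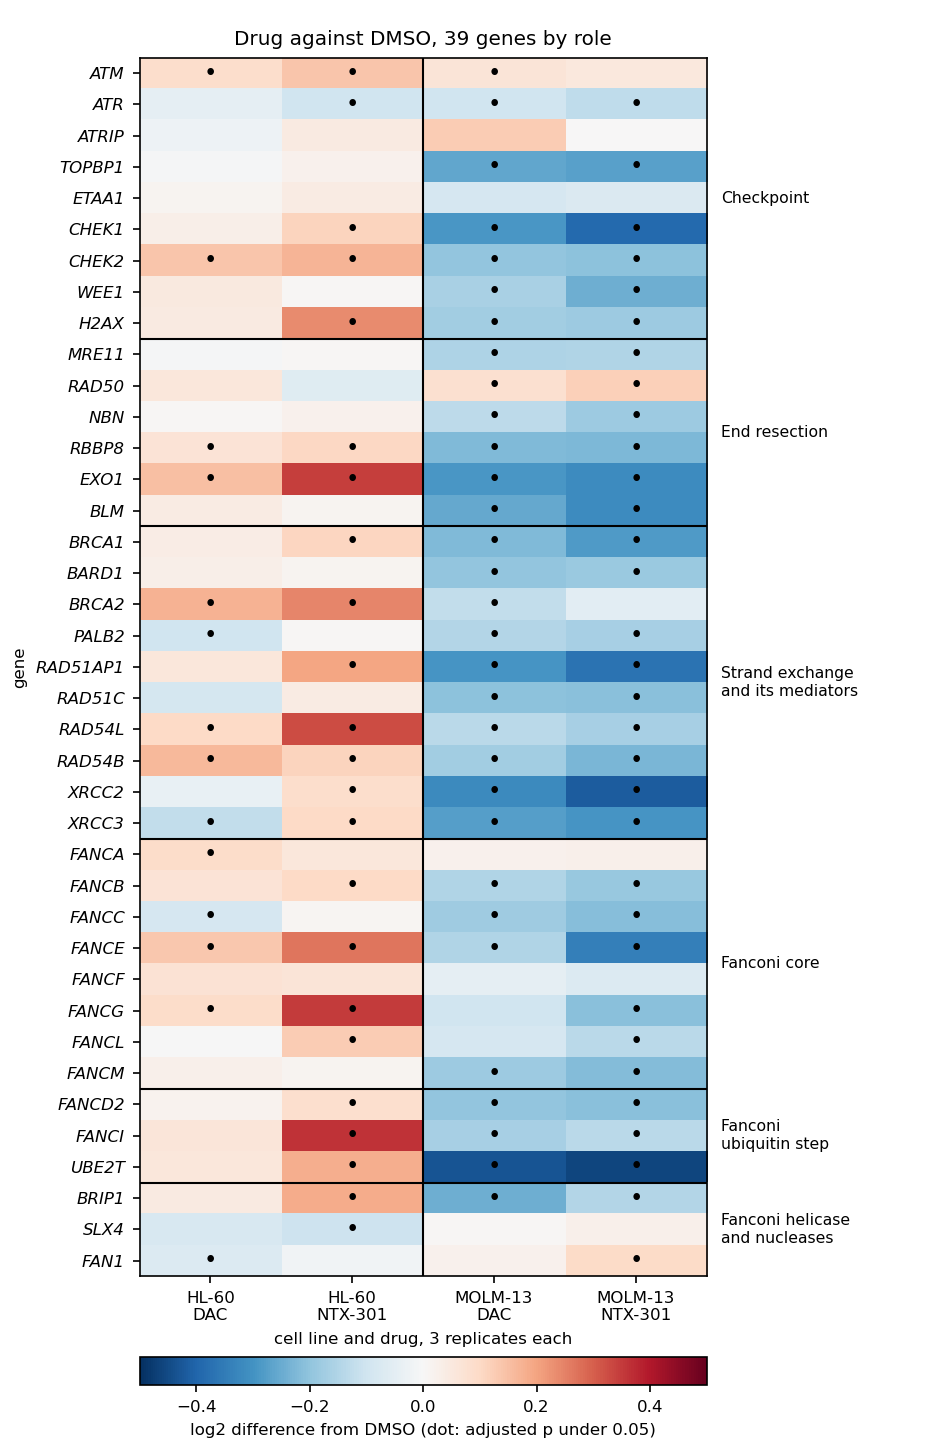
Log2 difference from DMSO of each of the 39 genes (rows, grouped by role) with DAC and NTX-301 in HL-60 and MOLM-13 (columns, 3 replicates per group), on a colour scale from -0.5 (blue) to 0.5 (red), where a dot marks an adjusted p under 0.05. The MOLM-13 columns hold 29 and 30 genes called lower and 2 called higher each. The HL-60 columns hold 10 and 21 called higher and 4 and 2 called lower. Over all genes in MOLM-13, 21.2% and 24.8% were called lower and 15.4% and 20.3% higher. Over all genes in HL-60, 11.6% and 18.3% were called higher and 12.6% and 19.2% lower.

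The largest falls in MOLM-13 were those of UBE2T, the ubiquitin-conjugating enzyme of the Fanconi pathway, of XRCC2, a paralogue of the recombinase, and then with DAC of RAD51AP1, which assists strand pairing, and with NTX-301 of CHEK1, the kinase downstream of ATR. UBE2T read 11.23, 11.43 and 11.32 in the DMSO samples, 10.92, 10.98 and 10.79 with DAC and 10.89, 10.92 and 10.80 with NTX-301. Every drug-treated sample lay below every DMSO sample. The difference was -0.43 with DAC (SE 0.06, limma adjusted p = 0.000143), beside -0.46 with NTX-301 (SE 0.06, adjusted p = 6.1e-05), or 0.742 and 0.728 of the DMSO level. XRCC2 read 11.92, 11.99 and 11.89 with DMSO, 11.65, 11.59 and 11.59 with DAC and 11.48, 11.51 and 11.56 with NTX-301. The groups did not overlap, and the differences from DMSO were -0.32 (SE 0.03, limma adjusted p = 2.88e-05) and -0.41 (SE 0.03, adjusted p = 3.06e-06). RAD51AP1 read 11.74, 11.81 and 11.78 with DMSO, 11.58, 11.38 and 11.47 with DAC and 11.38, 11.40 and 11.44 with NTX-301. Both drugs lay below DMSO without overlap, at -0.30 and -0.37. CHEK1 read 12.40, 12.52 and 12.47 with DMSO, 12.20, 12.13 and 12.19 with DAC and 12.06, 12.16 and 12.001 with NTX-301, again with every treated sample below the DMSO samples, at -0.29 and -0.39.

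Against that direction, RAD50, the ATPase of the complex that first binds broken ends, was higher in MOLM-13 with both drugs. It read 12.37, 12.39 and 12.41 with DMSO, 12.48, 12.43 and 12.49 with DAC and 12.52, 12.47 and 12.52 with NTX-301. The groups did not overlap with DMSO, and the differences were 0.08 (limma adjusted p = 0.0374) and 0.12 (adjusted p = 0.00365). ATM read 14.78, 14.84 and 14.80 with DMSO, 14.88, 14.86 and 14.87 with DAC and 14.84, 14.86 and 14.87 with NTX-301. The treated samples lay above the DMSO samples, with hardly any gap for NTX-301. The difference passed the test with DAC, at 0.06 (limma adjusted p = 0.0484), and not with NTX-301, at 0.05 (adjusted p = 0.0882). FAN1, a nuclease of crosslink repair, read 12.18, 12.17 and 12.11 with DMSO, 12.15, 12.20 and 12.17 with DAC and 12.21, 12.27 and 12.26 with NTX-301. It was called higher with NTX-301 alone, at 0.10 (limma adjusted p = 0.0131), and the DAC samples overlapped with DMSO. The DAC calls of RAD50 and ATM were lost in 5 (RAD50) and 8 (ATM) of 9 fits with 1 library left out (RAD50 at 0.07 without DAC replicate 3, ATM at 0.05 without DMSO replicate 1). The NTX-301 call of FAN1 was lost in 3 of 9 (0.08 without DMSO replicate 3). These calls of RAD50, ATM and FAN1 were also lost where each sample was centred on its median, at 0.04, 0.03 and 0.07.

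**Figure D2:**
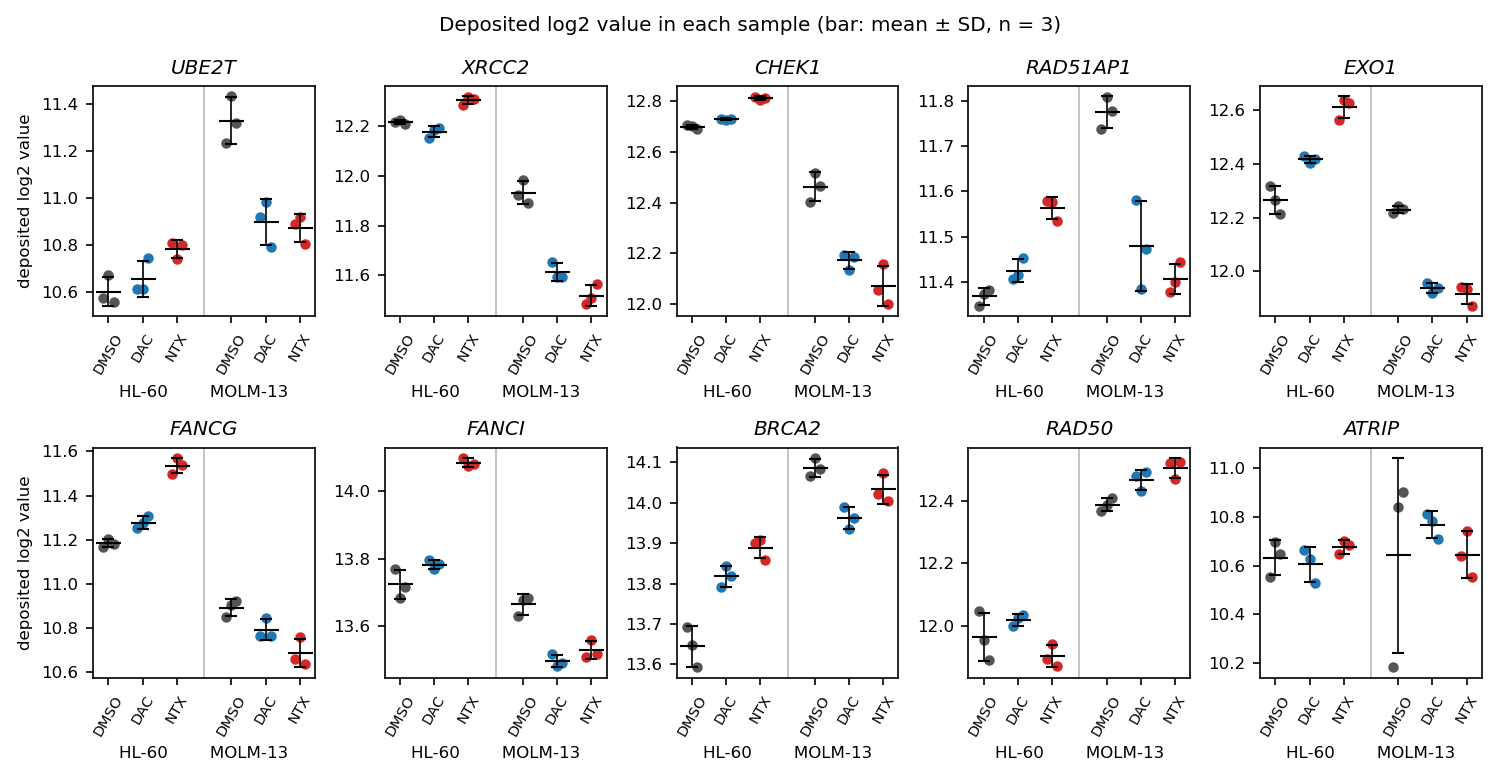
Deposited log2 value of 10 of the genes in each of the 18 samples (points), by drug within HL-60 (left of the grey line) and MOLM-13 (right), with the mean and SD of 3 replicates as bars; NTX stands for NTX-301, and levels are not compared between lines. In MOLM-13 the treated samples of UBE2T, XRCC2, CHEK1, RAD51AP1 and EXO1 lie below all DMSO samples, those of RAD50 lie above, and 1 DMSO sample of ATRIP stands at 10.18.

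The bases before the transcription start are shown for the 3 genes that fell most with DAC in MOLM-13 and for RAD50, the gene called higher with both drugs there, so that the letters searched for below can be seen in place. They are RefSeq promoter windows of GRCh38.p14, a different build from that named in the labels, and were matched by symbol. UBE2T is at chr1:202341937-202342186 on the minus strand, XRCC2 at chr7:152676142-152676391 on the minus strand, RAD51AP1 at chr12:4538640-4538889 on the plus strand and RAD50 at chr5:132556727-132556976 on the plus strand. Each run gives the 250 bases before the start, 5′ to 3′ on the strand of the gene, and capitals mark the matches to the motifs.
UBE2T: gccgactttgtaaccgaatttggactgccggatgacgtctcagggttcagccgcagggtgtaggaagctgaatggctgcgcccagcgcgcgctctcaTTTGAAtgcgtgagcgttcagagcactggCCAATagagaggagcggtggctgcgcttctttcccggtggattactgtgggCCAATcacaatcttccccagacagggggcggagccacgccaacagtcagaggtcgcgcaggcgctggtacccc
XRCC2: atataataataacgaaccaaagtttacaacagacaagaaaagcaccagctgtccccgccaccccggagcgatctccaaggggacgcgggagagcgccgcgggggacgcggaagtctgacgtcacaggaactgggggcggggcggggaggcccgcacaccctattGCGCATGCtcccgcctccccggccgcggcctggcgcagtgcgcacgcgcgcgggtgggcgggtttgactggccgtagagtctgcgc
RAD51AP1: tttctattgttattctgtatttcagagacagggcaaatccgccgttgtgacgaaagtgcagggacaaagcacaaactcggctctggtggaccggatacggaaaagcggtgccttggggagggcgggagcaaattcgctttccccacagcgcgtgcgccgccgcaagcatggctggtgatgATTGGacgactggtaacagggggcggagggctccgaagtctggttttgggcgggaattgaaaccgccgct
RAD50: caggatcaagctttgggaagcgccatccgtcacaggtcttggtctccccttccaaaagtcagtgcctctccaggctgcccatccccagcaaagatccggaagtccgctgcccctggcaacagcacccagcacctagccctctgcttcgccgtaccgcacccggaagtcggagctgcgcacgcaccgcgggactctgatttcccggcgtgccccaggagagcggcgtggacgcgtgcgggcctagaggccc

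The motifs searched, on both strands, were those of E2F factors (TTTCCCGC, TTTGGCGC or TTTGGCGG), the cell cycle homology region or CHR (TTTGAA), the NF-Y box (CCAAT) and NRF1 (GCGCATGC), over 250 bases before to 50 after the start. No match overlapped a match to another motif. The UBE2T run holds a CHR match and 2 CCAAT matches, XRCC2 holds 1 NRF1 match and, after the start and so outside the printed run, an E2F match, RAD51AP1 holds 1 CCAAT on the minus strand and RAD50 holds none of these letters. Of the 39 genes, 35 matched the table, with 46 windows between them, since some genes have several starts (FANCI, NBN, RAD54B and WEE1 had no entry). CCAAT stood in 23 of the 46 windows (50%), against 34.6% of all 35116 windows and 35.5% of the windows of genes listed in both lines. An E2F match stood in 3 windows (6.52%), those of FANCC, FANCD2 and XRCC2, against 2.89% of all windows and 4.43% of those of listed genes. The CHR stood in 5 (10.9%, against 15.2% and 10.95%) and NRF1 in 3 (6.52%, against 3.05% and 5.05%). For scale, an E2F match stood in 13 of the 27 windows of the S-phase genes described below and the CHR in 14 of the 21 windows of the G2 and mitosis genes. Among genes called lower with NTX-301 in MOLM-13, CCAAT stood in 16 of 34 windows, and among those not called lower in 7 of 12. The 46 windows held a median of 26 CpG sites (11 to 44), against 25 in the windows of all genes listed in both lines and 14 in all windows. A match is only a match of letters.

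In HL-60 the largest rises with NTX-301 were those of FANCI, the partner of FANCD2 that is ubiquitinated with it, FANCG, a subunit of the core complex, and EXO1, an exonuclease that extends resection. FANCI read 13.77, 13.68 and 13.72 in the DMSO samples, 13.79, 13.77 and 13.78 with DAC and 14.10, 14.07 and 14.08 with NTX-301. The NTX-301 samples stood clear of all others, at 0.36 above DMSO (SE 0.02, limma adjusted p = 2.93e-08), or 1.28-fold. FANCG read 11.17, 11.20 and 11.18 with DMSO, 11.25, 11.27 and 11.31 with DAC and 11.50, 11.57 and 11.54 with NTX-301. The 3 groups did not overlap, and the differences from DMSO were 0.09 with DAC (limma adjusted p = 0.0226), beside 0.35 with NTX-301 (adjusted p = 2.22e-07). EXO1 read 12.32, 12.27 and 12.21 with DMSO, 12.43, 12.40 and 12.42 with DAC and 12.56, 12.64 and 12.63 with NTX-301. It rose in the same order without overlap, at 0.15 with DAC (limma adjusted p = 0.00171), beside 0.34 with NTX-301 (adjusted p = 5.05e-07).

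With DAC in HL-60 the 3 largest rises were those of BRCA2, RAD54B and EXO1. BRCA2, which loads the recombinase onto single-stranded DNA, read 13.69, 13.65 and 13.59 with DMSO, 13.79, 13.84 and 13.82 with DAC and 13.90, 13.91 and 13.86 with NTX-301. No groups overlapped, and the rise was 0.17 with DAC (SE 0.03, limma adjusted p = 0.000263), beside 0.24 with NTX-301 (SE 0.03, adjusted p = 4.66e-06). RAD54B, a relative of the motor protein RAD54L, read 9.88, 9.82 and 9.90 with DMSO, 10.04, 10.02 and 10.03 with DAC and 9.89, 10.02 and 10.03 with NTX-301. The DAC samples lay above DMSO, at 0.16, and NTX-301 replicate 1 fell within the DMSO range, with a difference of 0.11. The NTX-301 call of RAD54B was lost in 7 of 9 fits with 1 library left out (0.08 without NTX-301 replicate 3), and the DAC call in 1 of 9 (0.14 without DMSO replicate 2). Of the other rises with DAC, that of RBBP8 was lost in 6 of 9 (0.05 without DAC replicate 3), those of FANCE and FANCG in 4 each (0.10 without DMSO replicate 1 and 0.08 without DAC replicate 3) and that of FANCA in 2 (0.08 without DAC replicate 2). With NTX-301, those of XRCC3 and FANCD2 were lost in 4 each (0.08 without DMSO replicate 1 and 0.07 without DMSO replicate 3) and that of FANCB in 3 (0.08 without DMSO replicate 3), and these 3 and that of XRCC2 (0.06) were not called where samples were centred.

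Falls in HL-60 were few and small, 4 with DAC and 2 with NTX-301. Over all genes there, 12.6% and 19.2% were called lower, so these falls were no more frequent than over all genes. XRCC3, a recombinase paralogue, read 11.69, 11.69 and 11.82 with DMSO, 11.59, 11.64 and 11.61 with DAC and 11.80, 11.83 and 11.87 with NTX-301. It lay below DMSO with DAC, at -0.12 (limma adjusted p = 0.0212), and was called higher with NTX-301, at 0.10 (adjusted p = 0.0376), where 1 DMSO sample overlapped. PALB2, the bridge between BRCA1 and BRCA2, read 11.38, 11.40 and 11.38 with DMSO, 11.23, 11.31 and 11.32 with DAC and 11.41, 11.38 and 11.39 with NTX-301. The DAC samples lay below the others, at -0.10, and the NTX-301 samples overlapped with DMSO. FANCC of the core complex read 10.86, 10.90 and 10.88 with DMSO, 10.79, 10.81 and 10.80 with DAC and 10.92, 10.91 and 10.85 with NTX-301, a difference of -0.08 with DAC. The fourth fall with DAC was that of FAN1, at -0.07. These 4 calls were lost without some single libraries: FANCC in 7 of 9 fits (-0.07 without DMSO replicate 2), FAN1 in 5 (-0.05 without DMSO replicate 1), XRCC3 in 3 (-0.08 without DMSO replicate 3) and PALB2 in 2 (-0.07 without DAC replicate 1).

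With NTX-301 in HL-60 the 2 falls were those of SLX4, a scaffold for nucleases, and ATR. SLX4 read 11.17, 11.18 and 11.22 with DMSO, 11.15, 11.10 and 11.08 with DAC and 11.09, 11.05 and 11.10 with NTX-301, with both drugs below DMSO, at -0.08 (limma adjusted p = 0.0539) and -0.10 (adjusted p = 0.00823). ATR read 13.85, 13.80 and 13.80 with DMSO, 13.76, 13.77 and 13.80 with DAC and 13.71, 13.74 and 13.72 with NTX-301, at -0.04 (limma adjusted p = 0.146) and -0.10 (adjusted p = 0.00164). The NTX-301 samples of ATR lay below those of both other groups.

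Of the 9 checkpoint genes, 2 rose with DAC and 4 with NTX-301 in HL-60, while 6 fell with each drug in MOLM-13. For this role and those below, 11.6% of all genes were called higher and 12.6% lower with DAC in HL-60. With NTX-301 there, the shares were 18.3% and 19.2%. In MOLM-13 they were 15.4% and 21.2% with DAC and 20.3% and 24.8% with NTX-301. Roles hold 3 to 10 genes, and their counts were not tested against those shares, so the counts only describe. CHEK2, the kinase downstream of ATM, rose by 0.14 and 0.17 in HL-60 and fell by 0.20 and 0.21 in MOLM-13 (DAC first, NTX-301 second, here and in the next paragraphs). CHEK1 was at 0.03 and 0.11 in HL-60, called with NTX-301. H2AX, the histone variant that is phosphorylated around breaks, was at 0.04 and 0.23 in HL-60, called with NTX-301, and at -0.18 and -0.18 in MOLM-13, called with both. ATM rose by 0.09 and 0.14 in HL-60. TOPBP1, an activator of ATR, was at -0.01 and 0.02 in HL-60, not called, and fell by 0.26 and 0.27 in MOLM-13. WEE1, the kinase that restrains entry into mitosis, was at 0.05 and 0.01 in HL-60, not called, and fell by 0.16 and 0.25 in MOLM-13. ATR fell by 0.10 and 0.13 in MOLM-13, calls that were lost after quantile normalization, at -0.02 and -0.02, and the DAC call also in 2 of 9 fits without 1 library (-0.08 without DMSO replicate 2). ETAA1, the other activator of ATR, was not called in either line, at 0.02 and 0.04 in HL-60, against -0.09 and -0.07 in MOLM-13. ATRIP was not called either, and its MOLM-13 values were the least precise of the 39 (SE 0.14), with DMSO samples at 10.18, 10.84 and 10.90, against 10.81, 10.78 and 10.71 with DAC and 10.64, 10.74 and 10.55 with NTX-301. Its difference with NTX-301 was 0.003 with all DMSO samples and -0.23 without DMSO replicate 1, where it was called lower (limma adjusted p = 0.00682).

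Of the 6 resection genes, EXO1 and RBBP8 rose with both drugs in HL-60, and 5 fell with both drugs in MOLM-13. RBBP8, which starts resection with the MRE11 complex, rose by 0.07 and 0.10 in HL-60 and fell by 0.22 and 0.23 in MOLM-13. EXO1 fell by 0.29 and 0.31 in MOLM-13, where it read 12.22, 12.24 and 12.23 with DMSO, 11.96, 11.92 and 11.94 with DAC and 11.94, 11.93 and 11.87 with NTX-301. BLM, a helicase that acts with nucleases in resection and later undoes joined strands, was at 0.04 and 0.02 in HL-60, not called, and fell by 0.26 and 0.32 in MOLM-13. The nuclease MRE11 and its partner NBN were not called in HL-60, at -0.01 and 0.004 for MRE11 and 0.01 and 0.02 for NBN. In MOLM-13 MRE11 fell by 0.15 and 0.15 and NBN by 0.13 and 0.18. After quantile normalization neither was called (MRE11 at -0.07 and -0.05, NBN at -0.03 and -0.04). RAD50, the third subunit of that complex, was not called against DMSO in HL-60, at 0.05 and -0.06.

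Of the 10 genes of strand exchange and its mediators, 3 rose and 2 fell with DAC in HL-60, 7 rose with NTX-301, and in MOLM-13 all 10 fell with DAC and 9 with NTX-301. RAD54L rose by 0.10 and 0.33 in HL-60 and fell by 0.14 and 0.17 in MOLM-13. RAD51AP1 was at 0.06 and 0.20 in HL-60, called with NTX-301. BRCA1, the ubiquitin ligase that opens the way to recombination, was at 0.04 and 0.11 in HL-60, called with NTX-301, and fell by 0.22 and 0.28 in MOLM-13. Its partner BARD1 was at 0.03 and 0.01 in HL-60, not called, and fell by 0.20 and 0.19 in MOLM-13. XRCC2 was at -0.04 and 0.09 in HL-60, called with NTX-301, and RAD51C, a further paralogue, was at -0.09 and 0.04, not called. In MOLM-13, RAD51C fell by 0.21 and 0.21, XRCC3 by 0.28 and 0.30, RAD54B by 0.17 and 0.23 and PALB2 by 0.15 and 0.17. BRCA2 in MOLM-13 was at -0.12 with DAC, which passed the test, and -0.05 with NTX-301, which did not (limma adjusted p = 0.108). After quantile normalization its values there were -0.03 and 0.06, the second called higher (limma adjusted p = 0.0389), and its DAC call was lost, as were those of PALB2 (-0.11) and RAD54L (-0.12). The calls of PALB2 and RAD54L were also lost in 3 and 4 of the 9 fits without 1 library (PALB2 at -0.12 without DAC replicate 2, RAD54L at -0.10 without DAC replicate 1).

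Of the 8 genes of the Fanconi core, which forms the ubiquitin ligase with its anchor, 3 rose and 1 fell with DAC in HL-60 and 4 rose with NTX-301, while 4 fell with DAC and 6 with NTX-301 in MOLM-13. With DAC, 12.6% of all genes were called lower in HL-60 and 21.2% in MOLM-13 (39.5% within the level range of the 39). FANCE, the subunit that binds FANCD2, rose by 0.14 and 0.27 in HL-60 and fell by 0.15 and 0.34 in MOLM-13, where it read 11.10, 11.16 and 11.20 with DMSO, 11.01, 11.03 and 10.98 with DAC and 10.82, 10.80 and 10.82 with NTX-301. The 3 groups of FANCE in MOLM-13 did not overlap. FANCG was at -0.10 and -0.21 in MOLM-13, called with NTX-301. FANCL, the ligase subunit, was at -0.003 and 0.13 in HL-60, against -0.08 and -0.13 in MOLM-13, called with NTX-301 in both lines, the MOLM-13 call lost in 4 of 9 fits without 1 library (-0.09 without DMSO replicate 2). FANCB was at 0.07 and 0.10 in HL-60, called with NTX-301, and fell by 0.15 and 0.19 in MOLM-13, the DAC call lost in 3 of 9 such fits (-0.13 without DMSO replicate 1). FANCM, the translocase that anchors the core at the lesion, was at 0.03 and 0.01 in HL-60, not called, and fell by 0.18 and 0.22 in MOLM-13. FANCC fell by 0.18 and 0.21 in MOLM-13 and was at 0.01 with NTX-301 in HL-60. FANCA was called only with DAC in HL-60, at 0.09, beside 0.06 with NTX-301 and 0.02 and 0.02 in MOLM-13. FANCF, the lowest of the 39 in both lines, was not called in any of these comparisons, at 0.07 and 0.06 in HL-60, against -0.05 and -0.07 in MOLM-13.

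All 3 genes of the ubiquitin step rose with NTX-301 in HL-60 and fell with both drugs in MOLM-13, and none was called with DAC in HL-60. UBE2T read 10.57, 10.67 and 10.56 with DMSO, 10.61, 10.61 and 10.74 with DAC and 10.81, 10.74 and 10.80 with NTX-301 in HL-60, where only the NTX-301 samples stood clear of DMSO, at 0.18. FANCD2, the other ubiquitinated protein, was at 0.02 and 0.08 in HL-60 and fell by 0.20 and 0.21 in MOLM-13. FANCI was at 0.06 with DAC in HL-60 and fell by 0.17 and 0.14 in MOLM-13. BRIP1, a helicase that binds BRCA1, was at 0.04 and 0.19 in HL-60, called with NTX-301, and fell by 0.24 and 0.15 in MOLM-13. The NTX-301 calls of FANCI and BRIP1 in MOLM-13 were lost after quantile normalization, at -0.02 and -0.06, as were both calls of H2AX there, at -0.13 and -0.12 (and its DAC call without DAC replicate 3, at -0.16). SLX4 was at 0.01 and 0.02 in MOLM-13 and FAN1 at 0.02 with DAC, not called.

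The 2 drugs were then compared directly. In HL-60, 17 of the 39 genes were higher with NTX-301 than with DAC and 1 was lower, beside 15.4% and 15.0% of all genes tested. The largest differences were those of FANCI (0.30, SE 0.02, limma adjusted p = 2.84e-07), FANCG (0.26), RAD54L (0.23), XRCC3 (0.22), EXO1 (0.19) and H2AX (0.19), and the gene that was lower was RAD50 (-0.12, limma adjusted p = 0.0192). Where each sample was centred on its median, the counts were 11 and 4, and over all genes 1746 higher and 5770 lower in place of 2622 and 2563. By pattern, 9 genes were called higher with both drugs against DMSO (ATM, BRCA2, CHEK2, EXO1, FANCE, FANCG, RAD54B, RAD54L and RBBP8), and 11 were called higher with NTX-301 and not with DAC. Both comparisons share the DMSO samples, and the share of all genes with each pattern was not counted. Of those 11, 9 also differed between the drugs themselves (BRCA1, BRIP1, CHEK1, FANCI, FANCL, H2AX, RAD51AP1, UBE2T and XRCC2), while FANCB and FANCD2 did not pass that test. Without single libraries the direct difference was lost for BRCA1 (in 5 of 9 fits, 0.06 without DAC replicate 1), UBE2T (in 4, 0.10 without DAC replicate 1), FANCC (in 4, 0.08 without NTX-301 replicate 1), RAD50 (in 4, -0.10 without NTX-301 replicate 3), FANCE (in 2, 0.11 without NTX-301 replicate 2) and PALB2 (in 1, 0.08 without DAC replicate 1). The 21 genes not called between the drugs had 95% confidence bounds from -0.14 (RAD54B) to 0.16 (ATRIP).

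In MOLM-13 the drugs differed in 1 of the 39 genes, FANCE, which lay lower under NTX-301 (-0.19 against DAC, SE 0.03, limma adjusted p = 0.00596), beside 3.01% of all genes called higher and 4.41% lower. For the 38 others the 95% confidence bounds of the difference ran from -0.44 to 0.19, both those of ATRIP, so a missing call does not show that the drugs acted alike. Against DMSO, 28 genes were called lower with both drugs. Both comparisons use the same DMSO samples, and the share of all genes called lower with both drugs was not counted.

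Differential action of a drug between the 2 lines was tested by subtracting its effect in HL-60 from its effect in MOLM-13. With DAC, 26 of the 39 genes had a lower effect in MOLM-13 and 0 a higher one, beside 17.9% and 12.1% of the 15474 genes tested in both lines. No gene was called higher by limma, and with a stricter filter, no filter, quantile normalization or no variance trend 1 was. With NTX-301, 33 were lower and 2 higher, beside 22.4% and 17.6%. The median difference of effects over the 39 was -0.21 and -0.29. With NTX-301 the largest were those of EXO1 (-0.44 with DAC, -0.66 with NTX-301), UBE2T (-0.49 and -0.64), FANCE (-0.29 and -0.61), RAD51AP1 (-0.35 and -0.56) and FANCG (-0.19 and -0.56). With DAC alone the largest were those of UBE2T, EXO1, RAD51AP1, CHEK2 (-0.34) and RAD54B (-0.33), and FANCG was nearer 0 than the median. The 2 higher ones with NTX-301 were RAD50 (0.18) and FAN1 (0.12). With NTX-301, 19 genes were called higher in HL-60 and lower in MOLM-13, and with DAC 7 were (BRCA2, CHEK2, EXO1, FANCE, RAD54B, RAD54L and RBBP8). FANCC, PALB2 and XRCC3 were called lower in both lines with DAC, ATM was called higher in both with DAC, and ATR was called lower in both with NTX-301. As the share of all genes with each of these patterns was not counted, the patterns are not read as particular to the 39.

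**Figure D3:**
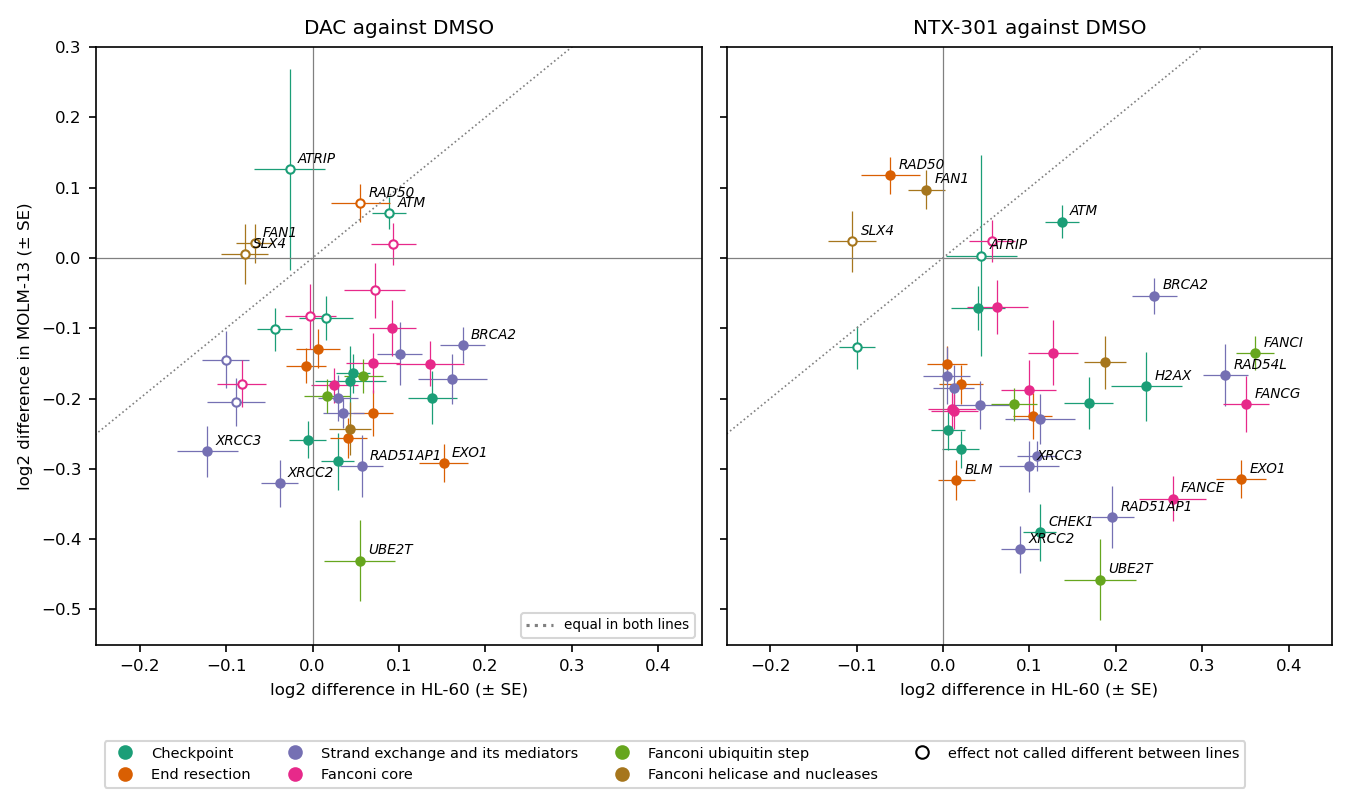
Log2 difference from DMSO in HL-60 (horizontal axis) and in MOLM-13 (vertical axis) of the 39 genes, with DAC (left) and NTX-301 (right), where bars are SE from limma, colours are roles, open points are genes whose effect was not called different between the lines and the dotted line marks equal effects. With NTX-301, 32 genes lie right of 0 and below 0, and RAD50 and FAN1 lie above the dotted line as filled points.

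Over the 39 genes the order of the effects differed between the lines. As a description, with genes that share the same samples, the effects in HL-60 and MOLM-13 had Pearson's r of -0.04 and Spearman's rho of 0.04 with DAC, and -0.32 and -0.28 with NTX-301 (n = 39 genes). BRCA2 was the gene with the largest rise with DAC in HL-60 and one of the smaller falls in MOLM-13, and FANCI had the largest rise with NTX-301 in HL-60 and a fall of 0.14 in MOLM-13. UBE2T, with the largest falls in MOLM-13, was at 0.05 and 0.18 in HL-60.

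Of a further 57 genes of the same pathway, all listed in both lines, most fell in MOLM-13. With DAC and NTX-301, 10 and 22 rose and 8 and 9 fell in HL-60, with medians of -0.01 (0.01 after quantile normalization) and 0.05 (0.02 where samples were centred). Over all genes in HL-60, 11.6% and 18.3% were called higher and 12.6% and 19.2% lower, so the falls are near the share over all genes. In MOLM-13, 4 and 4 rose and 33 and 34 fell, with medians of -0.11 (-0.08 after quantile normalization) and -0.12. Of all genes there, 15.4% and 20.3% were called higher and 21.2% and 24.8% lower. Within the level range of the 39, 39.5% and 45.7% were called lower. CDC25B, a phosphatase that starts mitosis, rose by 0.21 and 0.34 in HL-60, and CLSPN, the adaptor through which ATR reaches CHEK1, rose by 0.20 and 0.31. CLSPN fell by 0.13 and 0.24 in MOLM-13. MAD2L2, a subunit of translesion polymerase zeta and of shieldin, was at 0.10 and 0.41 in HL-60, both called, and fell by 0.31 and 0.24 in MOLM-13. MCM8, a helicase of recombination, rose by 0.13 and 0.26 in HL-60 and fell by 0.23 and 0.26 in MOLM-13. USP1, which removes ubiquitin from FANCD2, was at 0.03 and 0.02 in HL-60, not called, and fell by 0.38 and 0.37 in MOLM-13. TIPIN, of the fork protection complex, fell in both lines, by 0.09 and 0.13 in HL-60, against 0.27 and 0.45 in MOLM-13.

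Among 16 genes of DNA-protein crosslink repair, 3 rose and 0 fell with DAC in HL-60, beside 11.6% and 12.6% of all genes. With NTX-301 in HL-60, 3 rose and 3 fell, where 18.3% of all genes were called higher and 19.2% lower. Those NTX-301 counts are near the share over all genes. The medians there were 0.0001 (0.01 after quantile normalization) and 0.02, the second at -0.01 where samples were centred and 0.04 after quantile normalization. In MOLM-13, 11 and 14 fell and 0 rose, with medians of -0.12 and -0.18 (-0.07 and -0.11 after quantile normalization). Of all genes there, 21.2% and 24.8% were called lower, and 39.5% and 45.7% of those within the level range of the 39. GCNA, a germ cell protein with a protease-like domain that acts on such crosslinks, read 7.74, 7.71 and 7.66 with DMSO in HL-60, 9.28, 9.32 and 9.33 with DAC and 7.77, 7.93 and 7.89 with NTX-301. The DAC samples stood clear of the others by more than 1 log2 unit, at 1.61 (SE 0.05, limma adjusted p = 2.13e-11), against 0.16 with NTX-301 (adjusted p = 0.012). In MOLM-13 GCNA was at 0.09 and 0.13, not called. SPRTN, the protease that cuts crosslinked proteins at the fork, was at 0.13 with DAC in HL-60 (limma adjusted p = 0.0276) and was not called in the other 3 comparisons with DMSO (0.06 in HL-60, -0.07 and -0.09 in MOLM-13). FAM111A, another protease of this kind, rose by 0.15 and 0.52 in HL-60 and fell by 0.17 and 0.11 in MOLM-13. TDP1, which removes proteins from DNA ends, fell by 0.23 and 0.22 in MOLM-13 and VCP, a segregase that extracts ubiquitinated proteins, fell by 0.11 and 0.25. UBE2K was at 0.06 and -0.12 in HL-60, called with NTX-301.

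Of 16 end joining genes, which act on breaks without a template, 1 rose and 4 fell with DAC and 2 rose and 5 fell with NTX-301 in HL-60, with medians of -0.03 and -0.01, the second at -0.04 where samples were centred and -0.03 after quantile normalization. Over all genes in HL-60, 11.6% and 18.3% were called higher and 12.6% and 19.2% lower, so these rises were no more frequent than over all genes. In MOLM-13, 8 and 9 fell and 0 and 1 rose, with medians of -0.10 and -0.13 (-0.06 and -0.08 after quantile normalization). Of all genes there, 21.2% and 24.8% were called lower and 15.4% and 20.3% higher. Within the level range of the 39, 39.5% and 45.7% were called lower. POLM, a polymerase of end joining, rose by 0.38 and 0.34 in HL-60, and DCLRE1C, a nuclease of end joining, fell by 0.12 and 0.20. LIG3 fell by 0.07 and 0.18 in HL-60 and by 0.15 and 0.12 in MOLM-13. XRCC6, a subunit of the Ku heterodimer, fell by 0.23 and 0.30 in MOLM-13, SHLD2 by 0.21 and 0.16 and RIF1 by 0.16 and 0.22.

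Lists of cell cycle genes had medians of the same sign as the 39 in each comparison with DMSO. Of 24 S-phase genes, 5 and 14 rose and 2 and 0 fell in HL-60, with medians of 0.03 and 0.09 (the second 0.06 where samples were centred and 0.15 after quantile normalization). In MOLM-13, 21 and 22 of them fell and 0 rose, with medians of -0.31 and -0.40 (-0.24 and -0.28 after quantile normalization). Of 24 G2 and mitosis genes, 8 and 21 rose and 0 fell in HL-60, with medians of 0.05 and 0.14. All 24 fell with each drug in MOLM-13, with medians of -0.30 and -0.35 (-0.21 and -0.27 after quantile normalization). Over all genes in HL-60, 11.6% and 18.3% were called higher and 12.6% and 19.2% lower. Over all genes in MOLM-13, 15.4% and 20.3% were called higher and 21.2% and 24.8% lower. Within the level range of the 39 there, 39.5% and 45.7% were called lower. RRM2 rose by 0.23 and 0.34 and TYMS by 0.21 and 0.38 in HL-60, both enzymes of nucleotide supply. MKI67, a marker of dividing cells, rose by 0.14 and 0.34 in HL-60 and fell by 0.17 and 0.10 in MOLM-13. In MOLM-13 the replicative helicase genes MCM2 and MCM6 fell by 0.37 and 0.48 and by 0.36 and 0.49, CCNB1, a mitotic cyclin, by 0.33 and 0.50 and BUB1B by 0.32 and 0.44. UNG, a uracil glycosylase, fell there by 0.43 and 0.45, and the mitotic genes CENPE and KIF20A fell by 0.30 and 0.24 and by 0.35 and 0.35. BUB1 and NUSAP1, also of mitosis, rose by 0.13 and 0.18 and by 0.10 and 0.20 in HL-60. DNMT1, the target of DAC, was at 0.03 and 0.06 in HL-60, called with NTX-301, and fell by 0.18 and 0.26 in MOLM-13. In bulk samples, fewer cells in S phase or G2 and less RNA per cell cannot be told apart, and the part of the cell cycle in the values of the 39 was not tested.

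**Figure D4:**
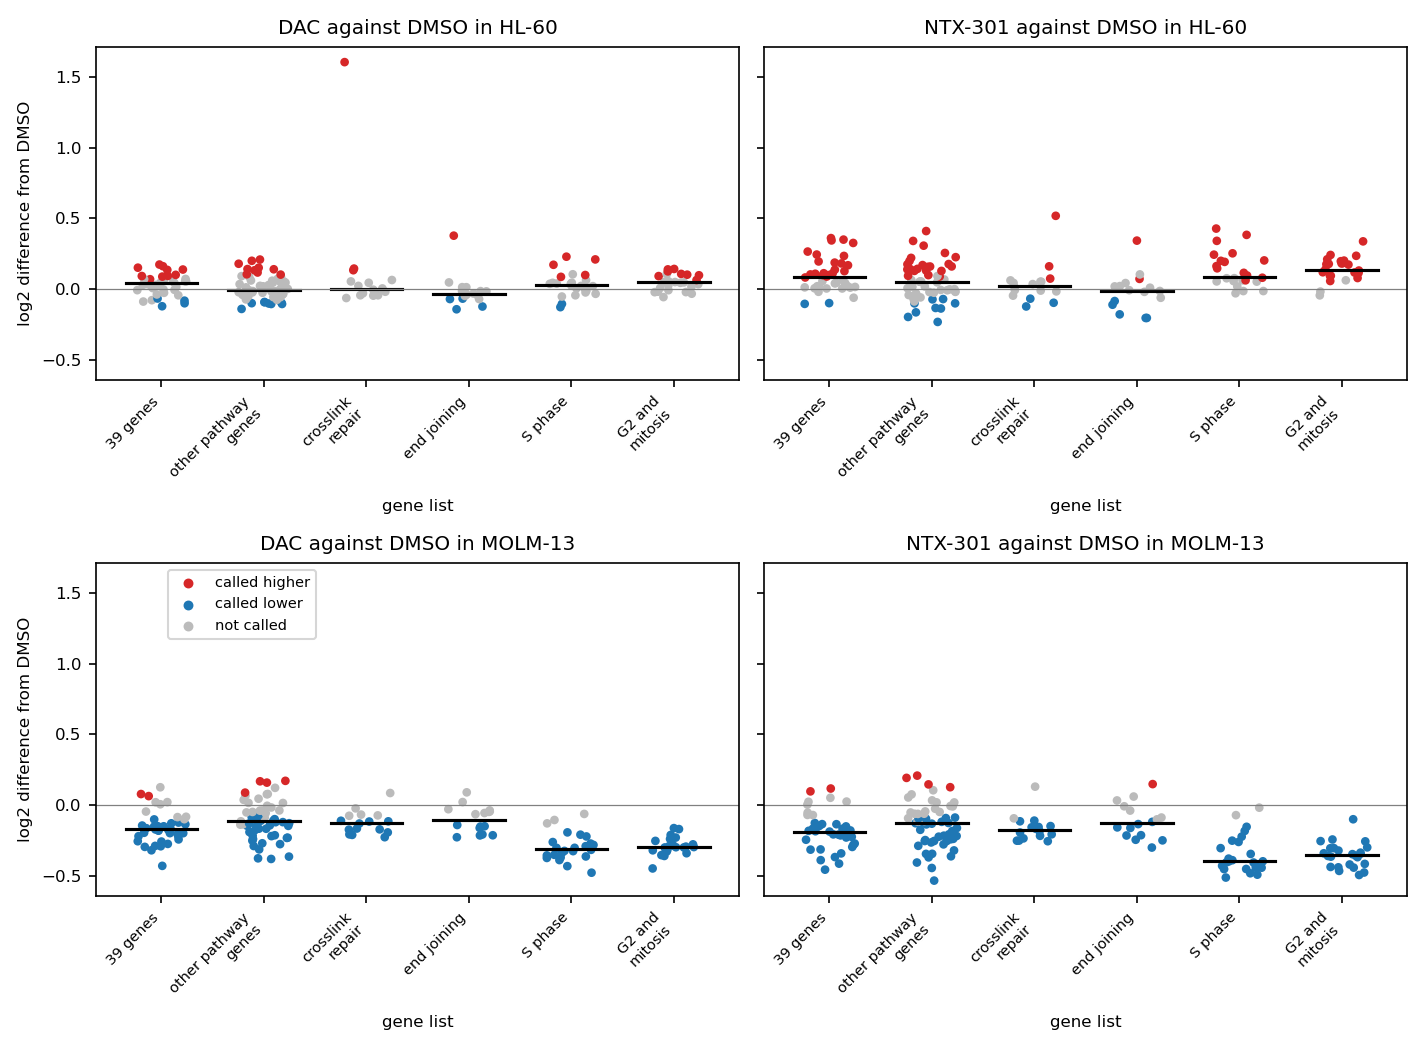
Log2 difference from DMSO of every gene of the 39 and of 5 further lists, in each drug and line, where each point is a gene, red and blue mark genes called higher and lower, grey marks genes not called and the bar is the median. In MOLM-13 the S-phase and G2 and mitosis lists have medians from -0.30 to -0.40, below that of the 39 genes (-0.17 and -0.19); the point near 1.6 in the DAC panel of HL-60 is GCNA.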

How the data were processed

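The deposited tables hold normalized expression on a log2 scale, made by the authors, and the values were used as deposited. The tables, 1 per sample, were joined within each cell line. The submitters' processing notes name FastQC, Trimmomatic 0.38, HISAT2, StringTie and the build hg19. The normalization and whether counting used strand are not given in the sources used here. Samples were grouped by the labels. Genes were tested if they reached 1 on the linear scale in 3 or more samples (17046 in HL-60, 17475 in MOLM-13). Each line was fitted apart in limma 3.58.1 (R 4.3.3), with 9 samples, 6 residual degrees of freedom, a variance trend and two-sided moderated tests, adjusted by Benjamini-Hochberg over all genes with a threshold of 0.05. Effects were compared between lines in 1 fit of 18 samples (15474 genes). The fit was tested on simulated data.

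The members and the lists were chosen with earlier results of these data known. All 39 genes are named. Values in every sample were given for the 3 called genes with the largest rise and fall in each drug-against-DMSO comparison, and from each other list the 2 genes with the lowest adjusted p in each comparison, besides GCNA, SPRTN, MKI67 and DNMT1; a few others were named after their values were seen. Some genes under this rule and 1 list are not reported here. Alternatives were other filters, scalings, variance priors, a fit of 2 groups, a replicate block and leaving out each library. Correlations of the deviations ran from -0.16 to 0.12 between same-numbered samples and from -0.12 to 0.16 between samples with other numbers. The numbers were therefore not taken to pair samples.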

Additional observations from a re-analysis of the deposited data

Results flagged for a closer look

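The results here are those in which the effect of a drug differed between the lines by limma's test of the difference itself, over all 15474 genes tested, and each value is the log2 effect in MOLM-13 less the effect in HL-60. They number 61, 26 with DAC and 35 with NTX-301. As the lines also differ in stated concentration, line and concentration cannot be told apart.

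Among the checkpoint genes, with DAC the difference was -0.25 for TOPBP1, -0.32 for CHEK1, -0.34 for CHEK2, -0.21 for WEE1 and -0.22 for H2AX. With NTX-301 the difference was -0.086 for ATM, -0.29 for TOPBP1, -0.11 for ETAA1, -0.50 for CHEK1, -0.38 for CHEK2, -0.25 for WEE1 and -0.42 for H2AX. Among the end resection genes, with DAC the difference was -0.15 for MRE11, -0.14 for NBN, -0.29 for RBBP8, -0.44 for EXO1 and -0.30 for BLM. With NTX-301 the difference was -0.16 for MRE11, 0.18 for RAD50, -0.20 for NBN, -0.33 for RBBP8, -0.66 for EXO1 and -0.33 for BLM. Among the strand exchange genes, with DAC the difference was -0.26 for BRCA1, -0.23 for BARD1, -0.30 for BRCA2, -0.35 for RAD51AP1, -0.24 for RAD54L, -0.33 for RAD54B, -0.28 for XRCC2 and -0.15 for XRCC3. With NTX-301 the difference was -0.39 for BRCA1, -0.20 for BARD1, -0.30 for BRCA2, -0.17 for PALB2, -0.56 for RAD51AP1, -0.25 for RAD51C, -0.49 for RAD54L, -0.34 for RAD54B, -0.50 for XRCC2 and -0.40 for XRCC3.

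Among the Fanconi core genes, with DAC the difference was -0.22 for FANCB, -0.29 for FANCE, -0.19 for FANCG and -0.21 for FANCM. With NTX-301 the difference was -0.29 for FANCB, -0.22 for FANCC, -0.61 for FANCE, -0.13 for FANCF, -0.56 for FANCG, -0.26 for FANCL and -0.23 for FANCM. Among the genes of the ubiquitin step, with DAC the difference was -0.21 for FANCD2, -0.23 for FANCI and -0.49 for UBE2T. With NTX-301 the difference was -0.29 for FANCD2, -0.50 for FANCI and -0.64 for UBE2T. Among the helicase and nuclease genes, with DAC the difference was -0.29 for BRIP1. With NTX-301 the difference was -0.34 for BRIP1 and 0.12 for FAN1.

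The least firm of these calls with NTX-301 were those of FANCF (lost in 11 fits that left out 1 library, -0.11 without HL-60 NTX-301 replicate 3), ETAA1 (in 10, -0.09 without HL-60 DMSO replicate 2) and ATM (in 4, -0.07 without MOLM-13 DMSO replicate 2). With DAC they were those of XRCC3 (in 7, -0.12 without MOLM-13 DAC replicate 1) and H2AX (in 4, -0.18 without HL-60 DMSO replicate 1). After quantile normalization the calls of MRE11 (-0.07) and NBN (-0.05) with DAC and of ATM (-0.01) with NTX-301 were lost as well.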

How the results depend on the processing

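Under every alternative run, more of the 39 were called higher than lower with NTX-301 against DMSO in HL-60. In MOLM-13 more were called lower than higher with each drug against DMSO. The cause of the changes given here was not tested. With DAC in HL-60 the 4 genes called lower became 2 with centring, quantile normalization or a fit of only the 2 groups, a split of 10 and 2 with centring and 11 and 2 with quantile normalization. Between the drugs in HL-60, the 17 higher became 11 with centring, and the 1 lower became 2 with the stricter filter, without the variance trend or with 2 groups, and 4 with centring. With DAC in MOLM-13 the 2 higher became 0 with centring or 2 groups and 1 with the robust prior or the replicate block. With NTX-301 in MOLM-13 the 2 higher became 1 with centring and 5 with quantile normalization (24 lower). Between the drugs in MOLM-13, 1 gene was higher after quantile normalization, and between the lines with DAC 1 was higher with no filter, the stricter filter, quantile normalization or no trend. Leaving out each library gave 7 to 10 higher and 1 to 4 lower with DAC and 17 to 20 and 2 to 3 with NTX-301 in HL-60, and 13 to 19 and 0 to 2 between the drugs there. In MOLM-13 it gave 0 to 1 and 25 to 29 with DAC, 1 to 3 and 29 to 30 with NTX-301, and 0 and 1 between the drugs. Between the lines it gave 0 to 2 and 24 to 27 with DAC and 2 to 3 and 30 to 34 with NTX-301. A change of sign with a call on either side occurred for BRCA2 with NTX-301 in MOLM-13 (0.060 after quantile normalization) and ATRIP there (-0.23 without DMSO replicate 1, with a range of -0.23 to 0.13 over the libraries left out). Centring moved the split over all genes to 2270 higher and 6053 lower with NTX-301 in HL-60 (from 3115 and 3265), 1960 and 5731 with DAC in MOLM-13 (from 2689 and 3705), 2735 and 5760 with NTX-301 there (from 3543 and 4337) and 1346 and 4548 for DAC between lines (from 1871 and 2767). With the replicate block, calls among the 39 went from 14 to 13 and from 23 to 23 in HL-60 and from 31 to 30 and from 32 to 32 in MOLM-13 (DAC, then NTX-301), and from 35 to 33 between the lines with NTX-301, and over all genes between the drugs in MOLM-13 from 1297 to 817; the samples share only a number. Depth is not known, so its limits could not be set.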
